A study of Homo sapiens with 3 samples.

Results

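The hypoxia response and glycolysis genes described here are 40 genes chosen by symbol: 17 enzymes of the route from glucose to lactate, and 23 other genes linked to the hypoxia-inducible factors (HIFs). A probe set annotated with exactly 1 of these symbols was found for 39 of the 40 genes, among 19775 genes measured in this way, and CA9 was not analysed here because no such probe set was listed for it. RNA came from SKOV-3, a human ovarian cancer cell line, stably transduced with lentivirus carrying G9a shRNA1, G9a shRNA2 or Luc shRNA, a hairpin against luciferase that served as the control. All 3 cultures were selected with puromycin, and the labels name no low-oxygen treatment for any of them. Each condition was hybridised to 1 Affymetrix array, so G9a shRNA1 (n = 1) and G9a shRNA2 (n = 1) were both set against the same Luc shRNA array (n = 1). No replicate error exists in this design, a deviation of the Luc shRNA array moves both comparisons together, and differences below are values without a test unless limma is named.

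HIFs are transcription factors made of an oxygen-regulated alpha subunit and the constitutive partner ARNT. In the presence of oxygen the EGLN prolyl hydroxylases mark the alpha subunit for VHL, the recognition subunit of a ubiquitin ligase, and in hypoxia the alpha subunit escapes and binds a short core motif in front of its targets. Those targets include angiogenic factors, regulators of pH, mitophagy receptors and most enzymes of glycolysis, the pathway on which many carcinoma cells rely for ATP and carbon. G9a, encoded by EHMT2, methylates lysine 9 of histone H3, a mark of repressed chromatin.

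Levels are MAS5 signals, a linear measure of hybridisation to a probe set, and changes are log2 ratios of a G9a shRNA array to the Luc shRNA array. A gene was represented by its brightest probe set and counted as measured where at least 1 array reached a signal of 11.96, the median of all values, as it did for 13192 genes. Statements on a gene refer to this probe set unless others are named. A stricter limit was the 75th percentile of all values, a signal of 89.7, which 8348 genes reached. Among the members, 38 of 39 passed the first limit and 32 the stricter one. EGLN2, the remaining prolyl hydroxylase, stayed under it with signals of 1.53, 2.84 and 0.942 on the Luc shRNA, G9a shRNA1 and G9a shRNA2 arrays, the order used for every set of 3 signals below.

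The targeted gene was lower on both G9a shRNA arrays. The brighter EHMT2 probe set read 182, 29.7 and 79.2, log2 ratios of -2.62 and -1.20, and a dimmer one read 27.6, 23.9 and 16.4. Past the filter, all genes had a median log2 ratio of 0.00 for G9a shRNA1 and 0.12 for G9a shRNA2, so a member near 0.12 on the second array sat at the level of all genes. The log2 ratio between the G9a shRNA arrays had a standard deviation across genes of 0.24 past the stricter limit and 0.87 for genes between both limits. The ratio of the 3' to the 5' control probe set of ACTB, a sign of RNA quality, was 3.68, 1.83 and 1.47, while that of GAPDH was 1.15, 1.12 and 1.14. The ACTB ratio moved with the groups, and its part in the differences below was not tested. The epithelial markers KRT8, KRT18, EPCAM, ERBB2 and PAX8 passed the stricter limit, KRT19 lay between the limits and MUC16 was under the filter. Of 12 markers of leukocytes, endothelium and fibroblasts, 10 had a probe set, 8 of these were under the filter on every array, and PECAM1 and DCN lay between the limits. The summed signal of these 10 probe sets was 60.5, 63.3 and 73.4, against 6895, 8178 and 9383 for the 7 epithelial ones. In bulk RNA of this kind, fewer cells with a transcript and less transcript per cell cannot be told apart.

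The promoters of the members often held the core motif through which HIF binds DNA. RefSeq promoter windows (GRCh38.p14) were available for 34 of the 40 members, as 60 windows, and the 250 bases before each start were searched on both strands for ACGTG and GCGTG. At least 1 of these was present in 36 of the 60 windows (60%), against 43.2% of all 35116 windows in the table. The share was 51.4% of 37 windows for the glycolytic enzymes and 73.9% of 23 windows for the other HIF-linked genes. By gene, 14 of 17 glycolytic enzymes and 15 of 17 other HIF-linked genes had a window with the core, against 47.4% of all genes in the table, and a gene with several windows reaches this count more easily. A match is a description of the letters and no evidence of binding. No window was listed for VHL, STC1, VEGFA, NDRG1, BNIP3L and PFKFB2.

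Windows of 5 members are printed to set the letters beside the expression values that follow. EGLN3 was lower past 2-fold with both hairpins, and BNIP3 was lower by less (-0.49 and -0.28). CA12 was lower mainly with G9a shRNA1, and ADM was higher with both hairpins. PGK1 is a glycolytic enzyme whose signal hardly moved. Each window is written 5′ to 3′ on the strand of its gene and ends at the base before the start. Capitals mark the core on either strand, so that a match on the opposite strand reads CACGT or CACGC, and the stretch CACGTG is 1 site that holds ACGTG on both strands. The windows lie at chr10:131981924-131982173 (minus strand) for BNIP3, chr15:63381847-63382096 (minus strand) for CA12, chr11:10304823-10305072 (plus strand) for ADM, chr14:33951075-33951324 (minus strand) for EGLN3 and chrX:78103998-78104247 (plus strand) for PGK1. BNIP3 held 5 sites, PGK1 3, CA12 1 and ADM 1, and EGLN3 held 0 in this window.
BNIP3: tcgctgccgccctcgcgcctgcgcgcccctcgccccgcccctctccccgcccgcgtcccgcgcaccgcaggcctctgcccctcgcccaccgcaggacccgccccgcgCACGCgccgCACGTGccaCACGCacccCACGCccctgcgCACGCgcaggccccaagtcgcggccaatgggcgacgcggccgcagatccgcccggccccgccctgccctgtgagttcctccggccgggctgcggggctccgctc
CA12: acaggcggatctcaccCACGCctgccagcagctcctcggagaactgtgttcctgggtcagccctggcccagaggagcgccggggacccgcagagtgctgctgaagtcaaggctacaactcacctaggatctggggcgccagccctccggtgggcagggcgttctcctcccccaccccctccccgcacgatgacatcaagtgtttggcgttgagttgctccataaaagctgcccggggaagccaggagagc
ADM: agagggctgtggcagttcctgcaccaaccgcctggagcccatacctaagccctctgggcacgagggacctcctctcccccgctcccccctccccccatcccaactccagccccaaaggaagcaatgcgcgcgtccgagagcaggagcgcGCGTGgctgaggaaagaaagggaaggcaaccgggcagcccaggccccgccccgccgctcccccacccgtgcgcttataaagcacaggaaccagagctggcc
EGLN3: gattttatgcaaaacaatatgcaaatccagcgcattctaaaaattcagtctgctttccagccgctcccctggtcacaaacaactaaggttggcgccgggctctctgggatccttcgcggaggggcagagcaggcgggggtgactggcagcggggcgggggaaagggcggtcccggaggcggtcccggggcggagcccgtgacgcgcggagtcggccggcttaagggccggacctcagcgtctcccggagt
PGK1: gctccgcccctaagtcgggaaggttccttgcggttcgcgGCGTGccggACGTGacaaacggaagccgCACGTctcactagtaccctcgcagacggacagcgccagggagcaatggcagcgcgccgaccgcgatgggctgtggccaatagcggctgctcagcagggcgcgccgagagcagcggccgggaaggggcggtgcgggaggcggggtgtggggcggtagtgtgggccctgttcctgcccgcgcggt

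Few of the hypoxia and glycolysis genes, as of all genes, differed from the control by 2-fold. With both hairpins EGLN3 and STC1 were lower and STC2 was higher, which is 2 and 1 of the 38 members past the filter. STC2 passed the filter only through the G9a shRNA arrays, where it was high, so its call says nothing of a change. Over all genes past the filter, 1.66% were lower and 2.57% higher past 2-fold with both hairpins. With G9a shRNA1 alone, 4 members (EGLN3, STC1, CA12 and PFKL) were lower and 1 (STC2) higher past 2-fold, against 5.1% and 4.21% of all genes. With G9a shRNA2, 2 members were lower and 1 higher, against 3.58% and 4.35%. Because EGLN3 and STC2 are dim, the count was repeated with a 1.5-fold limit among the 32 members past the stricter limit, a combination chosen after the data were seen. There, STC1 was the 1 member lower and ADM the 1 member higher with both hairpins, against 2.22% and 3.76% of the 8348 genes. STC1 reached the stricter limit only on the Luc shRNA array, where it was high. This repeat therefore adds nothing to the call of STC1 past the first limit, which its signals passed on every array.

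STC1 and ADM also stood apart when limma took both G9a shRNA arrays as 1 group against the lone Luc shRNA array, which had to be assumed to vary like them. The residual in this fit is the difference between 2 hairpins and not a replicate error. At a Benjamini-Hochberg adjusted p under 0.05 over all genes, limma called STC1 lower (adjusted p = 0.000141) and ADM higher (adjusted p = 0.0121), 1 and 1 of 38 members, against 1.57% lower and 2.3% higher over all genes. At an unadjusted p under 0.05 limma had 9 members lower and 4 higher of 38, where 5.94% and 9.54% of all genes were. CA12 (adjusted p = 0.0587), NDRG1 (adjusted p = 0.0596), PFKL (adjusted p = 0.19), EGLN3 (adjusted p = 0.245) and STC2 (adjusted p = 0.26) missed the limma threshold.

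**Figure D1:**
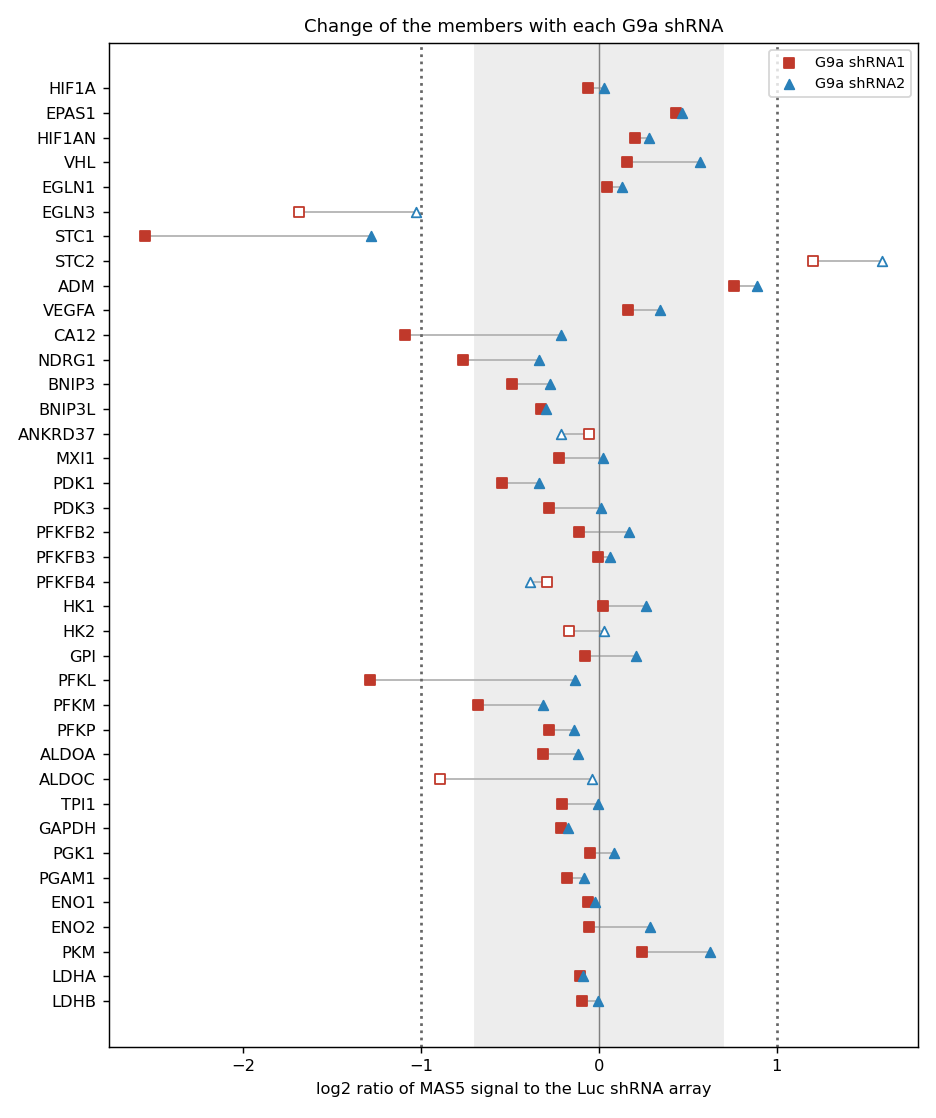
Log2 ratio of the MAS5 signal to the Luc shRNA array (horizontal axis) for the 38 members past the filter, ordered by role, with squares for G9a shRNA1 and triangles for G9a shRNA2 (n = 1 each). Open symbols are members that do not reach the 75th percentile of signal, and dotted lines mark 2-fold. The shaded band covers genes past the 75th percentile of signal. It runs from -0.69, their 5th percentile with G9a shRNA1, to 0.70, their 95th percentile with G9a shRNA2. The band of either hairpin alone is narrower, -0.69 to 0.60 for G9a shRNA1 and -0.44 to 0.70 for G9a shRNA2. STC1 at -2.55 and -1.28 lies farthest to the left, and ADM is the filled member above the band on both arrays.

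The genes of the HIF alpha subunits stayed within 2-fold of the control. HIF1A, the alpha subunit present in most cells, read 5815, 5568 and 5933, log2 ratios of -0.06 and 0.03. EPAS1, which encodes HIF-2 alpha, read 1297, 1748 and 1790, log2 ratios of 0.43 and 0.47. HIF1A lay slightly below the median of all genes on each G9a shRNA array, whereas both G9a shRNA arrays had more EPAS1 signal than the control by a ratio inside the 5th to 95th percentiles of bright genes.

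Genes that restrain HIF differed by role. EGLN1, which encodes the main oxygen-sensing prolyl hydroxylase, read 651, 670.0 and 711, log2 ratios of 0.04 and 0.13. HIF1AN, the asparaginyl hydroxylase that blocks coactivator binding, read 106, 122 and 128, and VHL read 110.1, 123 and 163. At these probe sets the 3 genes had ratios from 0.04 to 0.57. Their other probe sets differed in order and in side: EGLN1 had 0.52 and 0.28 at a control signal of 87.4, and HIF1AN had -0.09 and 0.04 at 90.0 and -0.37 and 0.25 at 43.4. EGLN3, a prolyl hydroxylase that is itself induced by HIF, went the other way and read 29.0, 8.99 and 14.2. Its log2 ratios were -1.69 and -1.03, and its second probe set, at 13.3, 9.56 and 4.42, had -0.48 and -1.59. The EGLN3 signals are close to the median of all values, where the arrays differ most.

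The secreted and surface products held the widest range of ratios among the roles of the 40 genes. STC1 encodes stanniocalcin-1, a secreted glycoprotein hormone that HIF induces in many carcinoma lines, and it read 142, 24.3 and 58.5. Both G9a shRNA arrays were below the control, by log2 ratios of -2.55 and -1.28, and G9a shRNA1 was below G9a shRNA2 by a further -1.27. The other STC1 probe sets gave -2.02 and -1.38 at a control signal of 105, and -0.99 and -1.03 at a control signal of 20.04. All 3 STC1 probe sets were therefore lower with both hairpins, and with G9a shRNA1 the ratio was nearer to 0 at dimmer probe sets.

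STC2, the paralogue of STC1, was on the opposite side at signals near background. It read 7.53, 17.4 and 22.7, log2 ratios of 1.20 and 1.59, and its second probe set stayed under the filter at 0.675, 0.695 and 9.81. Raising all values under the median to it brought the STC2 ratios to 0.54 and 0.92. The 2-fold call of STC2 thus depended on a control signal below the median of all values.

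ADM, which encodes the vasodilator peptide adrenomedullin, read 438, 741 and 811 from 1 probe set. The log2 ratios of 0.76 and 0.89 were the highest among the members past the stricter limit with either hairpin, and both arrays lay above the control. VEGFA, the angiogenic growth factor, read 761, 854 and 964 at its brightest probe set, log2 ratios of 0.17 and 0.34. A second VEGFA probe set read 132, 233 and 300.4 (0.82 and 1.19), another 56.3, 62.4 and 84.0 (0.15 and 0.58), and the dimmest 30.2, 64.4 and 87.1 (1.09 and 1.53). All 4 VEGFA probe sets were higher on both G9a shRNA arrays, by a size that differed between probe sets. Both probe sets with the larger ratios carry the _x_at ending, which Affymetrix gives to probe sets whose probes may also bind other transcripts.

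CA12, a membrane-bound carbonic anhydrase that regulates extracellular pH, differed between the hairpins. It read 1851, 870.4 and 1598, a log2 ratio of -1.09 for G9a shRNA1 and -0.21 for G9a shRNA2. The other 4 CA12 probe sets past the stricter limit had ratios from -1.08 to -0.64 with G9a shRNA1 and from -0.21 to 0.22 with G9a shRNA2. A dim one read 15.8, 18.1 and 14.0 (0.20 and -0.17). CA12 was therefore lower by about the same amount at 4 of its bright probe sets with G9a shRNA1, and between -0.21 and 0.22 at all 5 with G9a shRNA2. Between the G9a shRNA arrays the CA12 ratio was -0.88, against the standard deviation of 0.24 across genes past the stricter limit.

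**Figure D2:**
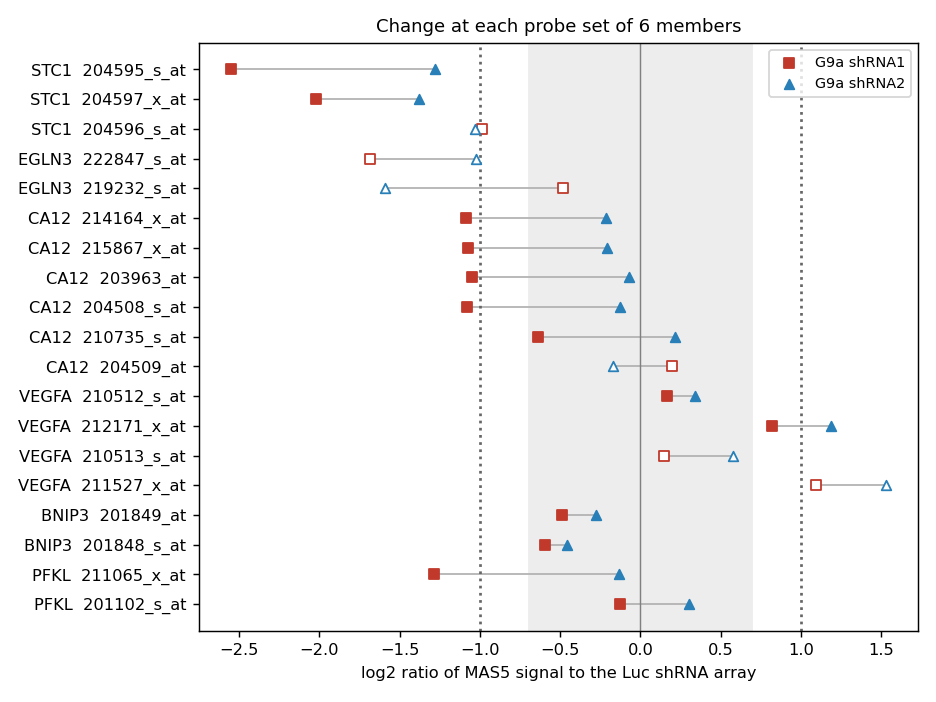
Log2 ratio to the Luc shRNA array (horizontal axis) at each probe set past the filter of STC1, EGLN3, CA12, VEGFA, BNIP3 and PFKL, with squares for G9a shRNA1, triangles for G9a shRNA2 (n = 1 each), and symbols, lines and band as in the plot of all members. All STC1 probe sets lie left of 0 with both hairpins, the bright CA12 probe sets separate the hairpins, and 1 of 2 PFKL probe sets stays near 0.

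The growth, mitophagy and nuclear targets were the role with the most uniform direction. NDRG1, a stress-induced differentiation gene, read 1917, 1129 and 1515, log2 ratios of -0.76 and -0.34. BNIP3, a mitophagy receptor of the outer mitochondrial membrane, read 1574, 1123.0 and 1299 (-0.49 and -0.28), and its second probe set read 678, 448 and 493 (-0.60 and -0.46). BNIP3L, the related receptor also called NIX, read 1076, 858 and 874 (-0.33 and -0.30). A second BNIP3L probe set read 632, 592 and 543 (-0.10 and -0.22). All probe sets given for these 3 genes were highest on the control, and G9a shRNA1 was lowest at all but the second of BNIP3L. MXI1, an antagonist of MYC, read 792, 678 and 805 (-0.22 and 0.02), and ANKRD37, an ankyrin repeat protein induced by hypoxia, read 34.2, 33.0 and 29.6 (-0.05 and -0.21). The median of the 5 genes was -0.33 and -0.28. All 5 lay below the median of all genes with each hairpin, a side that 50% of all genes take by construction, and 0 of the 5 passed 2-fold.

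**Figure D3:**
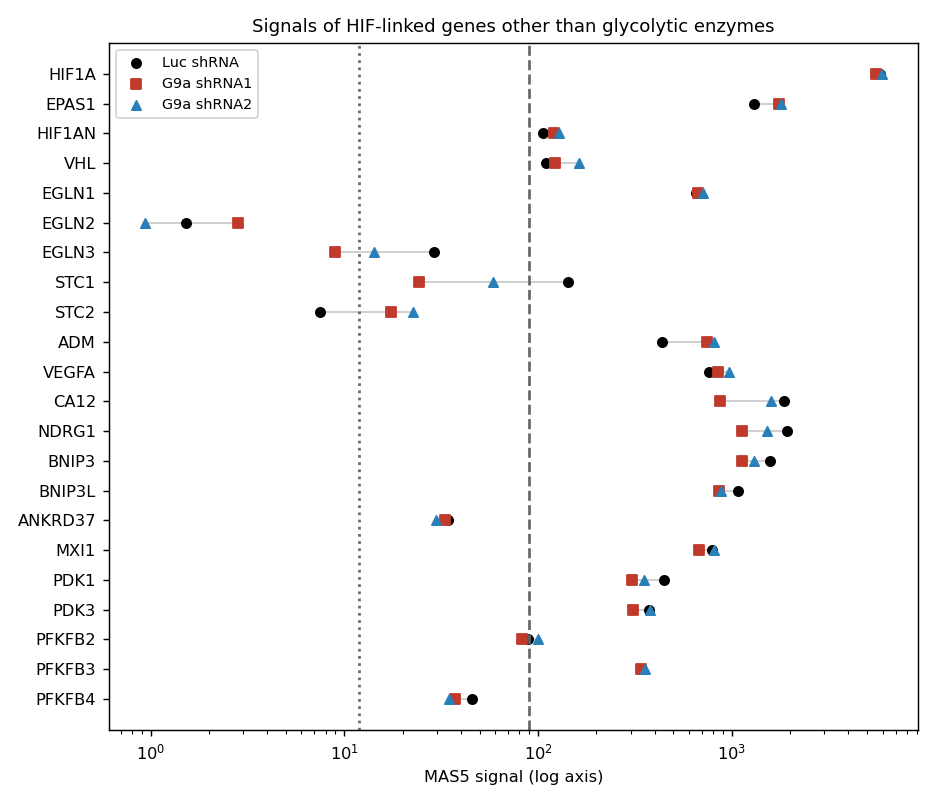
MAS5 signal (horizontal log axis) of the 22 HIF-linked members that are not glycolytic enzymes and have a probe set, on the Luc shRNA (circles), G9a shRNA1 (squares) and G9a shRNA2 (triangles) arrays. The dotted line marks the median of all values (11.96) and the dashed line their 75th percentile (89.7). The symbols of HIF1A overlap at the right, the STC1 control lies far above both G9a shRNA arrays, and EGLN2, EGLN3 and STC2 have symbols left of the dotted line.

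The kinases that set glycolytic flux moved little. PDK1, which phosphorylates and inhibits pyruvate dehydrogenase and so keeps pyruvate out of the mitochondrion, read 446, 306 and 354, log2 ratios of -0.55 and -0.33. PDK3, a kinase of the same family, read 374, 308 and 378 (-0.28 and 0.01). Dimmer probe sets did not share these ratios: 1 of PDK1 had -0.10 and 0.54, and the other 4 of PDK3 ran from -0.15 to 0.02 with G9a shRNA1 and from -0.05 to 0.68 with G9a shRNA2. The PFKFB enzymes make and break fructose 2,6-bisphosphate, the activator of phosphofructokinase, and had ratios from -0.29 to -0.01 with G9a shRNA1 and from -0.39 to 0.17 with G9a shRNA2. PFKFB3, the isoform of high kinase activity, read 341, 339.7 and 356. PFKFB2 read 89.2, 82.5 and 100.4 at its brightest probe set, whereas a dim one read 17.9, 30.8 and 42.8 (0.79 and 1.26) and another 1.29, 14.2 and 11.5. The probe sets of PFKFB2 disagreed in side with G9a shRNA1 and were all above the control with G9a shRNA2, and the last of them rests on a control signal near background.

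The glycolytic enzymes had high signals, and their median lay slightly below that of all genes with both hairpins. Their median log2 ratio was -0.17 on the G9a shRNA1 array and -0.02 on the G9a shRNA2 array, where all genes past the filter had 0.00 and 0.12. Of the 17 enzymes, 15 and 13 lay below the median of all genes with G9a shRNA1 and G9a shRNA2, where 50% of all genes do by construction. For the 11 enzymes with a mean signal of at least 1000 the medians were -0.10 and -0.02, against -0.03 and 0.07 for the 1402 genes of that brightness, whose log2 ratio between the G9a shRNA arrays had a standard deviation of 0.16. The other HIF-linked members had medians of -0.11 and 0.02, also below all genes on both arrays. Members of 1 pathway are not replicates, and no test was made of either median.

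In the first steps of glycolysis the phosphofructokinase genes had the lowest ratios. HK1, the hexokinase found in most tissues, read 735, 747 and 881, and HK2, the HIF-inducible hexokinase, read 71.6, 63.6 and 73.0. GPI, which isomerises glucose 6-phosphate, read 1061, 1006 and 1224. None of these 3 was lower with G9a shRNA2, and their ratios with G9a shRNA1 ran from -0.17 to 0.02. PFKM, the muscle-type phosphofructokinase, read 565, 353 and 454 (-0.68 and -0.32). PFKP, the platelet type, read 2165, 1784 and 1965 (-0.28 and -0.14). At these probe sets both genes were highest on the control and lowest with G9a shRNA1. Another PFKP probe set, with the _x_at ending, was on the opposite side at 1.07, 16.6 and 6.74, a control signal near background.

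PFKL, the liver-type phosphofructokinase, passed 2-fold at only 1 of its probe sets. The brighter one, with the _x_at ending, read 190, 77.9 and 173 (-1.28 and -0.13), and the other read 118, 108 and 145 (-0.13 and 0.30). Between the G9a shRNA arrays the brighter probe set differed by -1.15. The decrease with G9a shRNA1 was not seen at the second PFKL probe set.

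From aldolase to enolase, ratios of the bright enzymes were small at their brightest probe sets. ALDOA, the main aldolase, read 5738, 4611 and 5284 (-0.32 and -0.12), and ALDOC read 45.4, 24.4 and 44.3 (-0.89 and -0.04). The dimmest ALDOA probe set, still past the stricter limit, read 1339, 859 and 931 (-0.64 and -0.52). TPI1, which interconverts the triose phosphates, read 3508, 3042 and 3493 (-0.21 and -0.01). GAPDH, the dehydrogenase that is often used as a reference gene, read 7561, 6520 and 6692 (-0.21 and -0.18) at its 3' control probe set. Its other probe sets, of similar brightness, ran from -0.23 to -0.04 with G9a shRNA1 and from -0.16 to 0.00 with G9a shRNA2. At the brightest probe sets G9a shRNA1 had the lowest signal for each of the 4 genes, and the dim ALDOC had the largest difference. PGK1, which forms the first ATP of the pathway, read 4808, 4639 and 5096 (-0.05 and 0.08), PGAM1, the phosphoglycerate mutase, read 3393, 2991 and 3207 (-0.18 and -0.08), and ENO1, the main enolase, read 5690, 5449 and 5613 (-0.06 and -0.02). A second bright ENO1 probe set was on the other side, at 3451, 3689 and 3843 (0.10 and 0.16). The other PGK1 probe sets past the stricter limit ran from -0.25 to 0.01 with G9a shRNA1 and from -0.10 to 0.21 with G9a shRNA2. ENO2, the neuronal enolase, read 155, 149 and 189 (-0.06 and 0.29).

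At the last steps, pyruvate kinase had the higher ratios and lactate dehydrogenase ratios near 0. PKM, the pyruvate kinase of most non-hepatic cells, read 1140.5, 1349 and 1756, log2 ratios of 0.24 and 0.62, and its dimmer probe set read 44.5, 39.0 and 47.1 (-0.19 and 0.08). LDHA, the HIF-inducible subunit that reduces pyruvate to lactate, read 8808, 8190 and 8275 (-0.10 and -0.09), and LDHB read 5362, 5019 and 5348 (-0.10 and 0.00). A second LDHB probe set read 3825, 3484 and 4032 (-0.13 and 0.08). PKM was thus above the control with both hairpins only at its brighter probe set, and the mean over both probe sets gave 0.03 and 0.35. Across the 38 members past the filter, 36 had a lower signal with G9a shRNA1 than with G9a shRNA2, as did 8970 of the 13192 genes. The median of that ratio was -0.20 for the members and -0.12 for all genes.

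**Figure D4:**
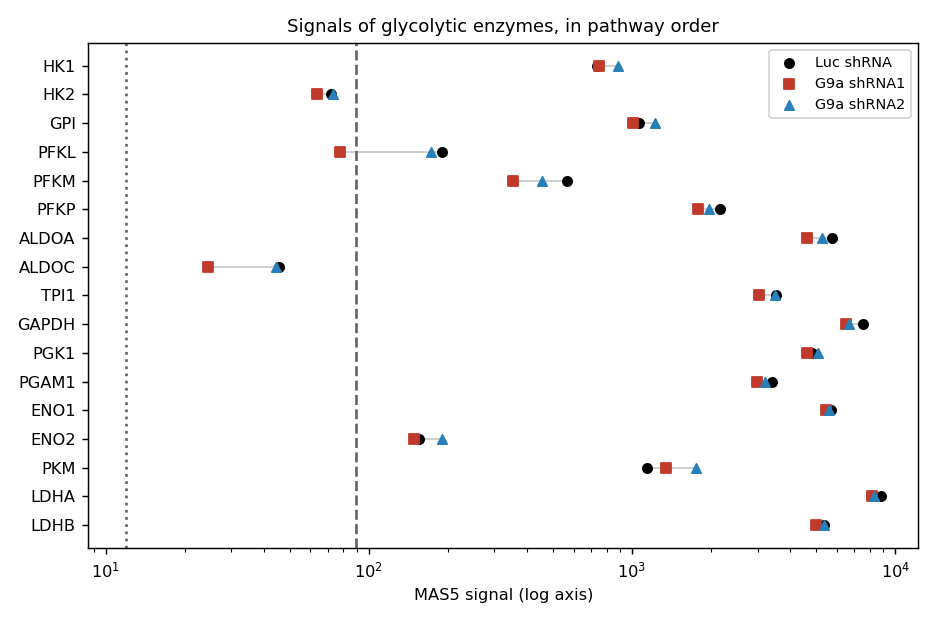
MAS5 signal (horizontal log axis) of the 17 glycolytic enzymes in pathway order on the Luc shRNA (circles), G9a shRNA1 (squares) and G9a shRNA2 (triangles) arrays, with the median of all values (dotted line, 11.96) and their 75th percentile (dashed line, 89.7). For 11 enzymes the mean signal is at least 1000, and apart from PKM their 3 symbols lie close together on this axis. PKM has G9a shRNA2 farthest to the right, and PFKL and ALDOC have G9a shRNA1 set apart to the left.

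Several pathway genes outside the 40 also differed from the control with both hairpins. A second list held 76 further genes: HIF partners, carriers of glucose and lactate, other glycolytic isoforms and their neighbours, and other HIF targets. Of these 70 had a probe set, 65 passed the filter and 48 the stricter limit. With both hairpins IGFBP3 was lower past 2-fold and HMOX1 and PGAM2 were higher, 1 and 2 of 65 beside the 1.66% and 2.57% of all genes. PGAM2, the muscle mutase, read 0.947, 12.1 and 1.98 and passed the filter only through the array where it was high, so it says nothing of a change. At 1.5-fold among the 48 brighter genes, 6 were lower (IGFBP3, DDIT4, EDN1, PLOD2, PLOD1 and AK4) and 4 higher (HMOX1, PDP1, PDK4 and CITED2), beside the 2.22% and 3.76% of all genes. limma called 5 lower and 4 higher of the 65, beside 1.57% and 2.3% of all genes. The list was chosen with earlier results of these data known, and the 1.5-fold count with the stricter limit after the data were seen. Because of these choices, the counts describe the list and cannot show an excess over all genes. The whole list had median log2 ratios of -0.08 and 0.03.

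Among the further HIF targets, IGFBP3, a binding protein of insulin-like growth factors, read 2265, 479 and 809. Its log2 ratios were -2.24 and -1.48 (limma adjusted p = 7.52e-08), and a second probe set had -2.41 and -1.51. DDIT4, an inhibitor of mTORC1 that is induced by hypoxia and by stress, read 826, 292 and 474, log2 ratios of -1.50 and -0.80 (limma adjusted p = 0.00148). The control was highest and G9a shRNA1 lowest for both genes, as for STC1. EDN1, the precursor of the vasoconstrictor endothelin-1, read 354, 179 and 148, log2 ratios of -0.98 and -1.25 (limma adjusted p = 0.00306). Its other probe sets had ratios from -0.83 to -0.68 with G9a shRNA1 and from -1.04 to -0.81 with G9a shRNA2, so that all 3 probe sets of EDN1 were lower with both hairpins.

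PLOD2, a lysyl hydroxylase of collagen, read 740, 277 and 485, log2 ratios of -1.42 and -0.61 (limma adjusted p = 0.00889), and PLOD1 read 370.0, 211 and 244 (-0.81 and -0.60). P4HA1, a prolyl hydroxylase of collagen, read 704, 384 and 492 (-0.87 and -0.52), and LOX, the crosslinking lysyl oxidase, read 105, 67.3 and 70.8 (-0.64 and -0.56). P4HA2, the paralogue of P4HA1, had 0.06 and 0.15. In limma PLOD1 (adjusted p = 0.0859), P4HA1 (adjusted p = 0.0632) and LOX (adjusted p = 0.243) missed the threshold. P4HA1, P4HA2, LOX, SLC2A1 and GBE1 were chosen for mention after their values were seen. Other genes of the list were higher with both hairpins, among them HILPDA (0.37 and 0.52), TFRC (0.49 and 0.26) and BSG (0.45 and 0.72). Of the 32 further HIF targets past the filter, 20 lay below the median of all genes with each hairpin, where 50% of all genes do by construction. SLC2A1, the glucose transporter GLUT1, read 276, 139 and 186 (-0.99 and -0.57), and GBE1, the glycogen branching enzyme, read 1761, 1107 and 1368 (-0.67 and -0.36). In PLOD1, PLOD2, P4HA1, LOX, SLC2A1 and GBE1 the control had the highest signal and G9a shRNA1 the lowest. AK4, an adenylate kinase of mitochondria, read 988, 554 and 564, log2 ratios of -0.83 and -0.81 (limma adjusted p = 0.0114). The other 3 AK4 probe sets past the stricter limit were lower by less, with ratios from -0.44 to -0.39 for G9a shRNA1 and from -0.20 to -0.18 for G9a shRNA2.

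The 4 genes past the stricter limit that were at least 1.5-fold higher with both hairpins were PDP1, PDK4, CITED2 and HMOX1. PDP1, the phosphatase that activates pyruvate dehydrogenase, read 878, 1734 and 1868, log2 ratios of 0.98 and 1.09 (limma adjusted p = 4.82e-05). PDK4, a kinase that inhibits the same complex, read 109, 217 and 222 (0.999 and 1.03). CITED2, which competes with HIF alpha subunits for their coactivators, read 345, 638 and 558 (0.89 and 0.69), and its second probe set had 1.04 and 1.23. The activating PDP1 and the inhibitory PDK4 were thus both higher. HMOX1, the heme oxygenase that HIF and oxidative stress both induce, read 792, 1753 and 1809, log2 ratios of 1.15 and 1.19 (limma adjusted p = 8.61e-06).

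**Figure D5:**
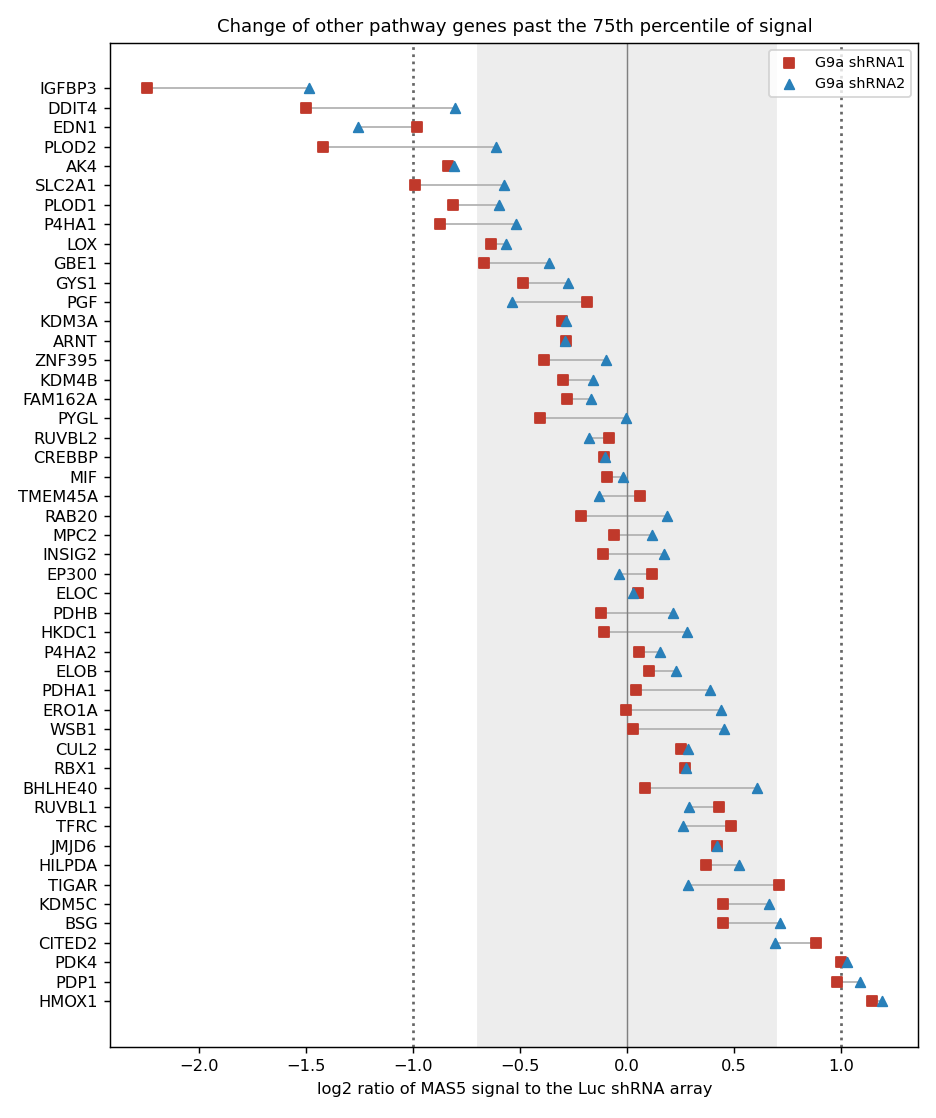
Log2 ratio of the MAS5 signal to the Luc shRNA array (horizontal axis) for the 48 further pathway genes past the 75th percentile of signal, ordered by the mean of both ratios, with squares for G9a shRNA1, triangles for G9a shRNA2 (n = 1 each), dotted lines at 2-fold and the shaded band from -0.69 to 0.70 as in the plot of the members. IGFBP3, DDIT4 and EDN1 lie at the top left, and PDK4, PDP1 and HMOX1 at the lower right.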

How the data were processed

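RNA of 3 SKOV-3 cultures was biotin-labelled and hybridised to Affymetrix Human Genome U133 Plus 2.0 arrays, 1 per condition. The authors processed the scans with MAS5 and deposited a linear intensity (signal) for each of 54675 probe sets. The scaling target is not given in the sources used here, and the 2% trimmed means of the arrays were 106, 105 and 115. Array number, not read depth, limits the precision. Symbols came from the platform annotation, updated through Entrez IDs: 41097 probe sets had 1 symbol, 1801 several and 11777 none. A gene was represented by the probe set brightest on the log2 scale, averaged over the arrays. No value was rescaled, and log2 ratios to the Luc shRNA array were taken without a pseudocount. All members were accounted for by role, and signals were given for those past 2-fold and the brightest of each role. The members and lists were chosen with earlier results of these data known. limma (3.58.1, R 4.3.3, eBayes with trend) was an alternative, tried on simulated data. Every simulated array had the noise seen between the G9a shRNA arrays, so the simulation could not check the assumption on the lone Luc shRNA array. Other steps used Python 3.11.15 and pandas 2.3.3. Another normalization, filter, floor or choice of probe set was tried for the counts, the medians and the ratio of each gene given, and another fold limit for the counts. RefSeq promoter windows (GRCh38.p14) were matched by symbol.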

Additional observations from a re-analysis of the deposited data

How the results depend on the processing

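No paired analysis was possible because each condition had 1 array, and leaving out an array leaves no comparison. The glycolytic median stayed below that of all genes under every normalization, filter, floor and choice of probe set tried, by -0.11 to -0.19 with G9a shRNA1 and -0.10 to -0.17 with G9a shRNA2. Its own value with G9a shRNA2 went from -0.02 to -0.13 when arrays were scaled to 1 trimmed mean, which took the median of all genes from 0.12 to 0.01. The other HIF-linked median with G9a shRNA2 went from 0.02 to -0.0859 under that scaling and -0.0819 under quantile normalization. The 2 members lower with both hairpins became 4 when 1 hairpin was enough, and 1 with the stricter filter, with limma, or with 1.5-fold and the stricter filter together. The 1 member higher became 2 at 1.5-fold, 3 with the mean over probe sets, and 0 with the stricter filter, with the floor, or when probe sets with the plain _at ending came first. Of the further pathway genes, the 1 lower became 7 at 1.5-fold, 6 with 1 hairpin enough or with 1.5-fold and the stricter filter together, 5 with limma and 2 with median centring. The 2 higher became 9 at 1.5-fold, 5 with 1 hairpin enough, 4 with limma, with the mean over probe sets, with no filter or with 1.5-fold and the stricter filter, and 1 with the stricter filter, the filter on the mean signal, the floor, median centring or trimmed mean scaling. STC1 and IGFBP3 were lower past 2-fold with both hairpins under every normalization, filter, floor and choice of probe set tried, and EGLN3 under all but the stricter filter. STC1 passed the stricter filter only through the Luc shRNA array, where it was high. Of the ratios of the 38 members and 16 further genes, recomputed under each of these, 918 moved by at most 0.25 and 26 by more: 5 with the floor, 20 with the mean over probe sets and 1 (SLC2A1) with plain _at first. The mean over probe sets put PFKP at 1.84 and 1.26 and PFKFB2 at 1.38 and 1.53, through dim probe sets.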
